A study of Mus musculus with 12 samples.

Results

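The genes described here are 10 immediate early genes, Fos, Fosb, Fosl2, Jun, Junb, Atf3, Egr1, Nr4a1, Ier2 and Myc, and the H3K27ac regions at them in isolated CMs. The genes were chosen by name. Every listed region that overlapped the body of a chosen gene, extended by 5 kb on each side (GENCODE M21, GRCm38), was taken. This gave 22 of 53754 regions in control CMs and 21 of 45521 regions in RIP140-null (KO) CMs, 43 of 99275 in all, and each of the 10 genes had at least 1 region in both lists.

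H3K27ac, a histone mark of active promoters and enhancers, was mapped by CUT&RUN, in which an antibody-tethered nuclease cuts out the marked chromatin for sequencing. CMs came from hearts of csNrip1-/- mice (Nrip1 f/f Cre+) and of littermate controls (Nrip1 f/f Cre-) aged 10 to 12 weeks. Each genotype had 3 H3K27ac and 3 IgG samples of 200000 cells each. The floxed Nrip1 allele was present in both genotypes, and Cre was expressed from the Nkx2.5 promoter, which is active in the heart from early development. Controls lacked Cre, so an effect of Cre and an effect of losing RIP140 (the corepressor encoded by Nrip1) cannot be told apart. A region entered a list when at least 2 of the 3 replicates held it, and the authors deposited 1 list per genotype, with the position of each region and no signal. The lists therefore hold no value per replicate and do not give the depth, and no difference between genotypes was tested. Widths and covered lengths below describe 1 list against the other.

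Immediate early genes are transcribed within minutes of a stimulus, before any new protein has to be made, because the factors that switch them on are already present. Growth factor, stress and calcium signals reach them through MAP kinases and through SRF with its ELK partners, which bind the CArG box of serum response elements, and through CREB, which binds the cAMP response element. Most of their products are transcription factors. FOS and JUN proteins pair to form AP-1, and EGR1 and NR4A1 bind sites of their own in the genes of a later response. Enzymatic dissociation of a tissue is a well-known inducer of these genes. The hearts of both genotypes were taken apart by Langendorff perfusion, and a slow spin served to collect the CMs. No time point and no intact heart was compared, so the part of isolation in the regions below was not tested.

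Promoter sequences, from 250 bases before to 50 bases after the RefSeq start (GRCm38.p6), were matched for 7 of the 10 genes. Egr1, Ier2 and Myc were not among these 7. In both lists all 300 bases of each of the 7 promoters lay inside an H3K27ac region. The promoters of Fos, Jun, Nr4a1 and Atf3 are shown because they hold the letters of the elements named above or because the start they mark is the covered start of the gene. Capitals mark matches, on either strand, to TATAAA, TGACATCA, GCGNGGGCG and TGACG. The Fos promoter is at chr12:85473640-85473939 (plus strand), that of Jun at chr4:95052173-95052472 (minus strand), that of Nr4a1 at chr15:101266596-101266895 (plus strand) and that of Atf3 at chr1:191183284-191183583 (minus strand).
Fos promoter: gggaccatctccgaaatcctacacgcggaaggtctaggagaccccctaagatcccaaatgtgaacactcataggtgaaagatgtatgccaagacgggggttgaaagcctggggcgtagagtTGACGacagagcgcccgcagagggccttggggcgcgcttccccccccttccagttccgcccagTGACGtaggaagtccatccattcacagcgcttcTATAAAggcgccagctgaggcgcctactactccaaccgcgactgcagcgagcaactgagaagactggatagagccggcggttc
Jun promoter: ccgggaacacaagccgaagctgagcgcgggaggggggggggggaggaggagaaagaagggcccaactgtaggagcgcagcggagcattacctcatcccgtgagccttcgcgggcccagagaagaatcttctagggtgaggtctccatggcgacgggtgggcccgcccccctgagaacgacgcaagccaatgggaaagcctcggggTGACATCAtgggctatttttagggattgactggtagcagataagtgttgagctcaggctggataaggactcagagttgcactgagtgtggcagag
Nr4a1 promoter: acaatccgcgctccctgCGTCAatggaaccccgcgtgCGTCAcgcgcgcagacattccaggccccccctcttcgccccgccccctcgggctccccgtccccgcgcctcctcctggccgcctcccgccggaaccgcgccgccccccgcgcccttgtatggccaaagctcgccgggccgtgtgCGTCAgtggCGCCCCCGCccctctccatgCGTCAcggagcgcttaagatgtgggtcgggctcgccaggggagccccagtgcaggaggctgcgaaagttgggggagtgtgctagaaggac
Atf3 promoter: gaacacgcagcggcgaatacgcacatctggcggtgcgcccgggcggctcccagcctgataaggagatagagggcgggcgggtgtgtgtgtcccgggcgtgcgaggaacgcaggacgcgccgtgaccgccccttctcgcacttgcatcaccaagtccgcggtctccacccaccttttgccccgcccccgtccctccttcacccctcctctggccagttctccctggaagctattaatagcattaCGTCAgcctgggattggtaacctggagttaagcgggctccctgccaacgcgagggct

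In Fos, TATAAA, the core of the TATA box, began at -33 from the start, counted with the start as 0. Junb held it at -30 from its GENCODE start. Thus 2 of 7 promoters held TATAAA, against 12.6% of 21263 RefSeq promoters of protein-coding genes. The single TGACATCA match, a variant of the AP-1 and cAMP response elements, lay at -45 in Jun, and 3.66% of all promoters held such a match. GCGNGGGCG, the core letters of the EGR1 site, was found in Fosl2, Fosb and Nr4a1, 3 of 7 against 7.52%. TGACG, the shorter core shared by cAMP response elements, was found in Fos, Fosb, Junb, Nr4a1 and Atf3, 5 of 7 against 23.6%. Nr4a1 held 4 of these matches and Fos held 2. TGACG is contained in TGACGTCA, the full cAMP response element, which none of the 7 windows held (2.23% of all promoters). None held TGANTCA, the AP-1 site (6.99%), CACGTG, the E-box of MYC (7.84%), or a CArG box (1.52%). The 7 promoters were rich in GC, with a median of 64.7% against 56.3% over all promoters and a median of 25 CG dinucleotides against 13.

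CArG boxes were then searched within 1000 bp of the GENCODE starts of the 7 matched genes. Both matches, in Fos at -309 and in Fosb at -266, lay just upstream of the promoter windows and inside the H3K27ac region of each list. They are shown because these elements receive the SRF signal described above, with the CArG box in capitals and 25 bases on each side. The Fos stretch is at chr12:85473556-85473615 (plus strand), and that of Fosb at chr7:19310283-19310342 (minus strand).
Fos CArG box: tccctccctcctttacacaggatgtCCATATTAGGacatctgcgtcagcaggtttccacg
Fosb CArG box: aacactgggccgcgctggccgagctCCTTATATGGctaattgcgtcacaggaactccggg
A CArG box lay within the same distance of 9.32% of 21921 protein-coding starts. TGANTCA was found in Fos, Fosl2 and Nr4a1, 3 of 7 genes, against 37.3% of starts.

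**Figure D1:**
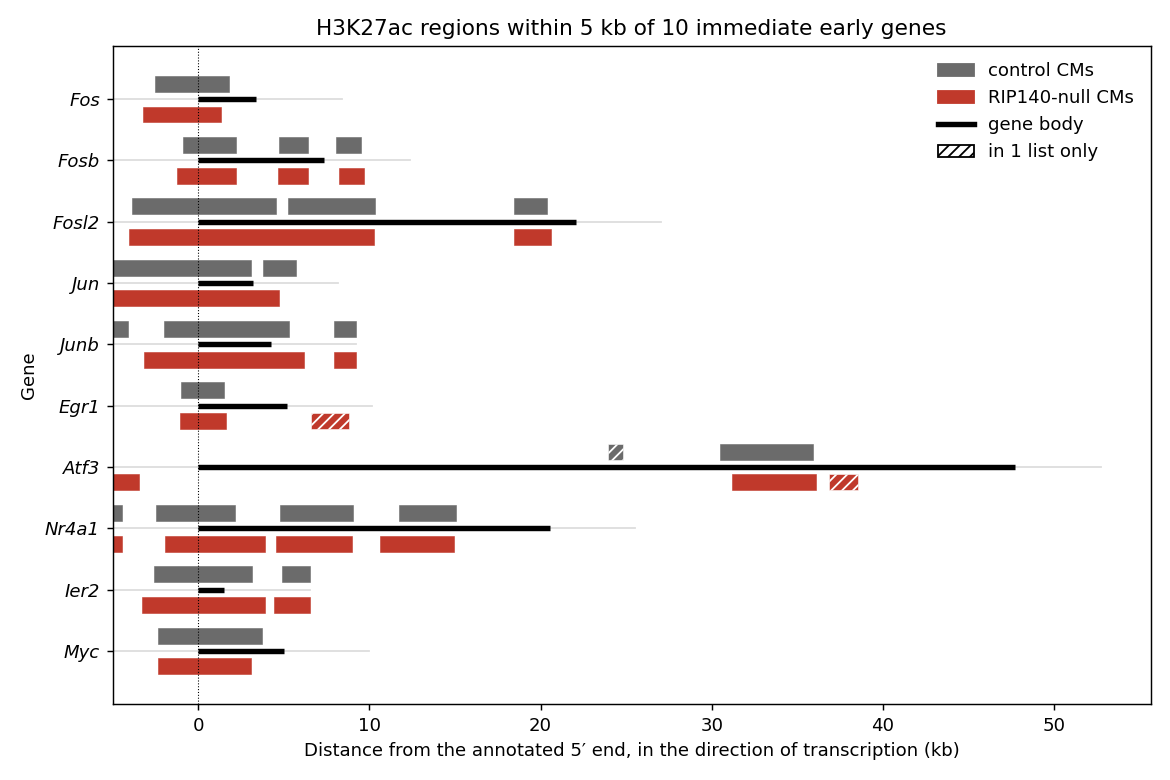
H3K27ac regions of control CMs (grey) and RIP140-null CMs (red) at the 10 genes, drawn by distance in kb from the annotated 5′ end along the direction of transcription. Black lines are gene bodies, thin lines reach 5 kb past them, where regions are clipped, and hatched regions overlap none of the other list. The start is covered in both lists at 9 of 10 genes, and the hatched regions are those of Egr1 and Atf3.

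Fos, Fosb and Fosl2 were covered at their starts in both genotypes. Fos, which encodes the founding partner of JUN in AP-1, spans chr12:85473890-85477273 on the plus strand. It had 1 region per list, chr12:85471374-85475711 in control CMs and chr12:85470656-85475243 in RIP140-null CMs. These were 4338 bp and 4588 bp wide, a log2 ratio of 0.08. Both lists shared 3870 bp. The region of RIP140-null CMs reached 3234 bp upstream of the start, against 2516 bp in controls, and ended earlier inside the gene, at 1353 bp against 1821 bp. The Fos region was therefore placed farther upstream in RIP140-null CMs, with little change in its width.

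Fosb encodes a FOS protein with a truncated splice form, and lies at chr7:19302696-19310051 on the minus strand. It had 3 regions in each list, and each overlapped its counterpart. The region over the start was 3132 bp wide in control CMs (chr7:19307819-19310950) and 3460 bp in RIP140-null CMs (chr7:19307847-19311306). A region over exons nearer the 3′ end was 1714 bp and 1752 bp wide, and one past the 3′ end was 1497 bp and 1445 bp wide. Together they covered 6343 bp in control and 6657 bp in RIP140-null CMs (log2 0.07).

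Fosl2 encodes FRA-2, a FOS protein without the strong activation domain of FOS. It lies at chr5:32135801-32157842 on the plus strand and had the longest covered length of the 10 genes in both lists, 15410 bp in control and 16532 bp in RIP140-null CMs (log2 0.10). Control CMs had a region of 8428 bp over the start (chr5:32131936-32140363) and another of 5079 bp in an intron (chr5:32141025-32146103). In RIP140-null CMs a single region of 14350 bp (chr5:32131731-32146080) spanned both. That region ended 10279 bp past the start, against 4562 bp for the control region over the start. Its log2 width ratio of 0.77 was past 1.5-fold, although the covered length of the whole gene differed little. A region near the 3′ end was 1903 bp wide in control and 2182 bp in RIP140-null CMs.

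Jun and Junb had broad regions over short genes. Jun, the principal DNA-binding partner of AP-1 and a target of its own product, lies at chr4:95049034-95052222 on the minus strand. Its start region was 8815 bp wide in control CMs (chr4:95049138-95057952) and 10086 bp in RIP140-null CMs (chr4:95047532-95057617). The control list had a second region of 1917 bp past the 3′ end (chr4:95046508-95048424), and the single region of RIP140-null CMs overlapped both, covering 46.6% of the smaller. Within the window, 10002 bp were covered in control and 9691 bp in RIP140-null CMs (log2 -0.05). As at Fosl2, a pair of control regions was 1 region in RIP140-null CMs.

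Junb, a JUN protein with weaker activation than JUN, lies at chr8:84974484-84978718 on the minus strand. The region over its start covered the whole gene, with 7335 bp in control CMs (chr8:84973403-84980737) and 9327 bp in RIP140-null CMs (chr8:84972551-84981877). It extended farther in RIP140-null CMs on both sides, by 1140 bp upstream and 852 bp downstream. An upstream region of 4174 bp in control CMs, of which 873 bp lay in the window, had no counterpart in the window in RIP140-null CMs, but 65.9% of it was covered by a region beyond the window. The covered length was 9487 bp in control and 10602 bp in RIP140-null CMs (log2 0.16). With whole regions in place of clipped ones the direction turned, with 13676 bp in control and 11921 bp in RIP140-null CMs (log2 -0.20). A region at the edge of the Junb window held the starts of Rnaseh2a and Prdx2, which are neighbors and not immediate early genes. Other annotated genes that are not protein-coding also started in covered parts of other windows in both lists, namely Gm26802 at Fosb, Gm10463 at Fosl2, Gm12703 and Junos at Jun, Gm26664 at Ier2 and Gm37947 at Myc; Gm24748 at Atf3 was not covered.

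Atf3, a stress-induced bZIP factor that represses as a homodimer and pairs with JUN, differed from the other 9 genes. Its gene record (chr1:191170296-191218039, minus strand) begins at a far upstream start that no region covered in either list. The start of a shorter transcript, 34706 bp downstream by RefSeq, was covered in both. That region was 5399 bp wide in control CMs (chr1:191182145-191187543) and 4906 bp in RIP140-null CMs (chr1:191181932-191186837). The other regions of Atf3 differed between the lists. An intronic region of 897 bp was in control CMs only, and an intronic region of 1693 bp in RIP140-null CMs only (chr1:191179500-191181192). The latter lay 952 bp from the nearest control region. RIP140-null CMs also had a region of 7726 bp upstream of the far start, of which 1528 bp lay in the window; it overlapped control regions that lay outside the window. The covered length was 6296 bp in control and 8127 bp in RIP140-null CMs (log2 0.37). This ratio depended on what was counted. It was 0.07 within the gene body, 0.59 among regions at least 1000 bp wide and 1.19 with whole regions in place of clipped ones.

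The central 300 bases of the KO-only Atf3 region (chr1:191180196-191180495) are shown on the plus strand, as the middle of a region present in 1 list only.
Atf3 KO-only region: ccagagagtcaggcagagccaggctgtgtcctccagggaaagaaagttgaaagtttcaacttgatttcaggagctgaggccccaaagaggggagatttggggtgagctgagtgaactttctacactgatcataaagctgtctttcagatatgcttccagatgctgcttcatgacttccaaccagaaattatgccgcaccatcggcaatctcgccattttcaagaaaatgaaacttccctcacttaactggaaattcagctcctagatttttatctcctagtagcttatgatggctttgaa
This window held none of the 6 motifs searched, which were the CArG box, the AP-1 site TGANTCA, the cAMP response element TGACGTCA and its variant TGACATCA, the E-box CACGTG and the EGR1 core GCGNGGGCG. The whole region of 1693 bp held 1 TGACATCA, outside this window, and none of the other 5. The control-only Atf3 region of 897 bp held 3 TGANTCA and none of the other 5. TGANTCA was found in 9.13% of the central 300-bp windows of all KO regions.

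Egr1, a zinc finger factor induced through serum response elements, had the largest ratio of the 10 genes in the windows used here. It lies at chr18:34859823-34864984 on the plus strand. The region over its start was 2514 bp wide in control CMs (chr18:34858789-34861302) and 2728 bp in RIP140-null CMs (chr18:34858734-34861461), a log2 ratio of 0.12. RIP140-null CMs had a further region of 2217 bp past the 3′ end (chr18:34866393-34868609), 5090 bp from the nearest control region. The covered length was 2514 bp in control and 4945 bp in RIP140-null CMs (log2 0.98). Of the difference of 2431 bp, the downstream region made up 2217 bp, and the wider start region made up the rest. Within the gene body alone the log2 ratio was 0.15, and Nr4a1 was then the largest at 0.38.

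Nr4a1 encodes NUR77, an orphan nuclear receptor of the steroid receptor superfamily, and lies at chr15:101254269-101274795 on the plus strand. It had 4 regions in each list, and each overlapped its counterpart. The region over the upstream start was 4615 bp wide in control CMs (chr15:101251773-101256387) and 5814 bp in RIP140-null CMs (chr15:101252329-101258142). The region over the internal start whose promoter is shown above was 3353 bp wide in control CMs (chr15:101265994-101269346) and 4329 bp in RIP140-null CMs (chr15:101264879-101269207). Between them lay an intronic region of 4232 bp in control and 4445 bp in RIP140-null CMs. The fourth, upstream of the gene and only in part within the window, was 4274 bp wide in control and 4108 bp in RIP140-null CMs. The covered length was 12720 bp in control and 15109 bp in RIP140-null CMs (log2 0.25). In whole width, the upstream region was narrower and the other 3 wider in RIP140-null CMs. The part of the upstream region within the window was 520 bp in control and 521 bp in RIP140-null CMs.

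Ier2 and Myc went in opposite directions. Ier2, a small nuclear protein gene with a single exon (chr8:84661331-84662852, minus strand), had a start region of 5712 bp in control CMs (chr8:84659736-84665447) and 7166 bp in RIP140-null CMs (chr8:84658980-84666145). The region in RIP140-null CMs extended farther by 698 bp upstream and 756 bp downstream. The covered length was 7317 bp in control and 9262 bp in RIP140-null CMs (log2 0.34), which was 80.4% of the window in the latter. Myc, the E-box factor of cell growth (chr15:61985391-61990374, plus strand), had 1 region per list, 6086 bp in control CMs (chr15:61983037-61989122) and 5421 bp in RIP140-null CMs (chr15:61983056-61988476). The latter lay wholly inside the former (log2 -0.17). Most of the loss was at the downstream edge, which fell by 646 bp, against 19 bp at the upstream edge. Myc was the only gene of the 9 with a covered start whose start region was narrower in RIP140-null CMs.

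**Figure D2:**
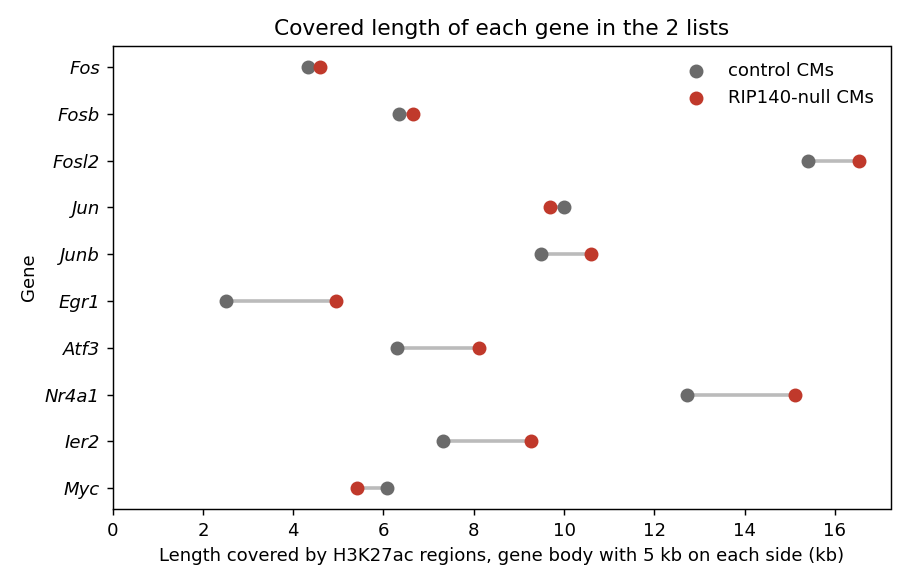
Length in kb covered by H3K27ac regions at each of the 10 genes, gene body with 5 kb on each side, in control CMs (grey) and RIP140-null CMs (red), 1 value per list with no replicate error. RIP140-null CMs have the longer covered length at 8 of 10 genes; Jun and Myc are the exceptions, and Egr1 goes from 2514 bp to 4945 bp.

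Across the 10 genes, the start was covered in both lists at 9, against 41.1% of 21938 protein-coding genes. With any annotated transcript start it was 10 of 10, against 45.9%. Coverage of these starts was thus common to both genotypes. A KO-only region was present at 2 genes (Egr1 and Atf3), against 23.2% of all protein-coding genes and 16.4% of the 15518 genes whose windows were of like length (11522 to 57744 bp). A control-only region was present at 1 gene (Atf3), against 25.8% and 16.6%. These counts were close to the background in the windows used here. The KO-only count was 1 within the gene body and 6 with 20 kb on each side, and the control-only count was 3 with 20 kb. No share over all genes was computed for those windows. Of the 22 control regions 95.5% overlapped a KO region, against 70.5% of the control list, and of the 21 KO regions 90.5% overlapped a control region, against 78.5% of the KO list.

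The covered length was longer in RIP140-null CMs at 8 of 10 genes, against 58.1% of the 12989 protein-coding genes covered in both lists. With whole regions in place of clipped ones it was longer at 7 and shorter at 3, Junb among the latter. Within the gene body alone it was longer at 6 and shorter at 2; the bodies of the other 2, Junb and Ier2, were covered in full in both lists, so their ratio could only be 0. Egr1 alone was past 1.5-fold longer, 1 of 10 against 16.3%, and 0 of 10 was past 1.5-fold shorter, against 8.60%. The median log2 ratio was 0.13 over the 10 genes, 0.08 over all genes covered in both lists and 0.11 over those of like window length. The small shift toward longer coverage was therefore near that of the lists as a whole. Summed over the 220145 bp of the 10 windows, the covered length was 80513 bp in control and 90934 bp in RIP140-null CMs.

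**Figure D3:**
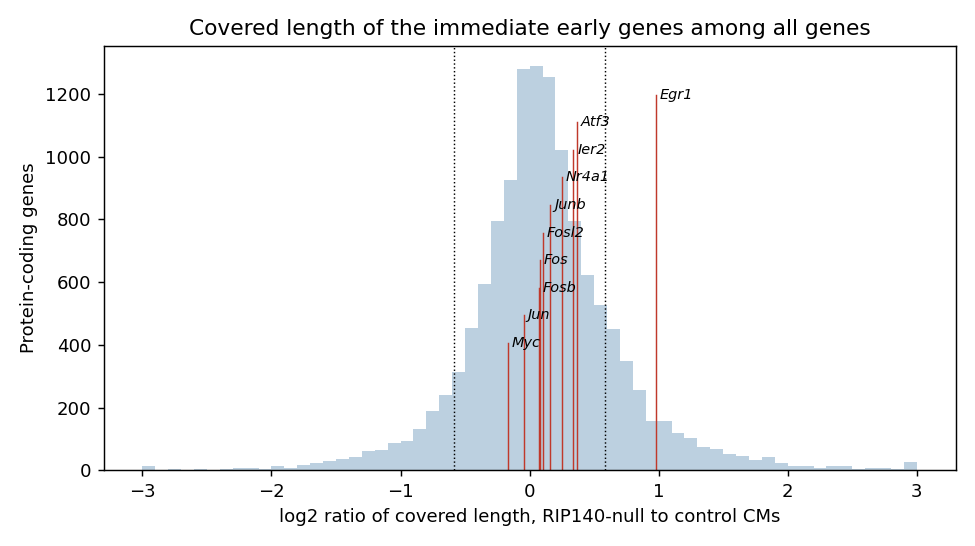
Histogram of the log2 ratio of covered length, RIP140-null to control CMs, over 12989 protein-coding genes covered in both lists, with values past 3 in size placed at the edge bins and dotted lines at 1.5-fold. Red lines, whose heights carry no value, mark the 10 genes, of which 9 lie between -0.17 and 0.37 and Egr1 at 0.98.

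Start regions were wider in RIP140-null CMs at 8 of 9 genes, against 60.7% of 9007 genes with the start covered in both lists, and past 1.5-fold wider at 1 of 9 (Fosl2), against 18.7%. The median log2 ratio of their widths was 0.19 over the 9 genes and 0.10 over all. The genes were not the same as for covered length, since Jun had a wider start region (log2 0.19) with a shorter covered length, and Egr1 was not past 1.5-fold here. The edges moved in no single direction. The upstream edge lay farther out in RIP140-null CMs at Fos, Fosb, Fosl2, Junb, Egr1 and Ier2 and nearer at Jun, Nr4a1 and Myc.

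The start regions of these genes were broader than those of most genes in both genotypes. Their median width was 5712 bp in control CMs, against 2555 bp over all 9555 covered starts, and 5814 bp in RIP140-null CMs, against 2752 bp over 10302. Similar or larger medians were found for 26 other immediate early genes (6578 bp and 7603 bp) and for 12 core cardiac transcription factor genes (14949.5 bp and 13147.5 bp), so this breadth was not particular to the 10 genes. Jun and Fosl2 were the widest in control CMs, wider than 93.3% and 92.5% of covered starts. In RIP140-null CMs the order was exchanged, with Fosl2 wider than 96.9% and Jun wider than 93.3%. Junb followed in both lists at 90.0% and 92.0%, and Myc was next in control CMs at 86.1%, but lay at 79.3% in RIP140-null CMs. Ier2 was at 84.2% and 86.7% and Nr4a1 at 78.1% and 81.4%. Fos lay at 75.9% and 73.8%, Fosb at 61.5% and 61.9%, and Egr1 was at the middle of all genes with 49.1% and 49.5%. The breadth of the mark thus set Jun, Junb and Fosl2 apart from Egr1, whose start region was of average width.

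**Figure D4:**
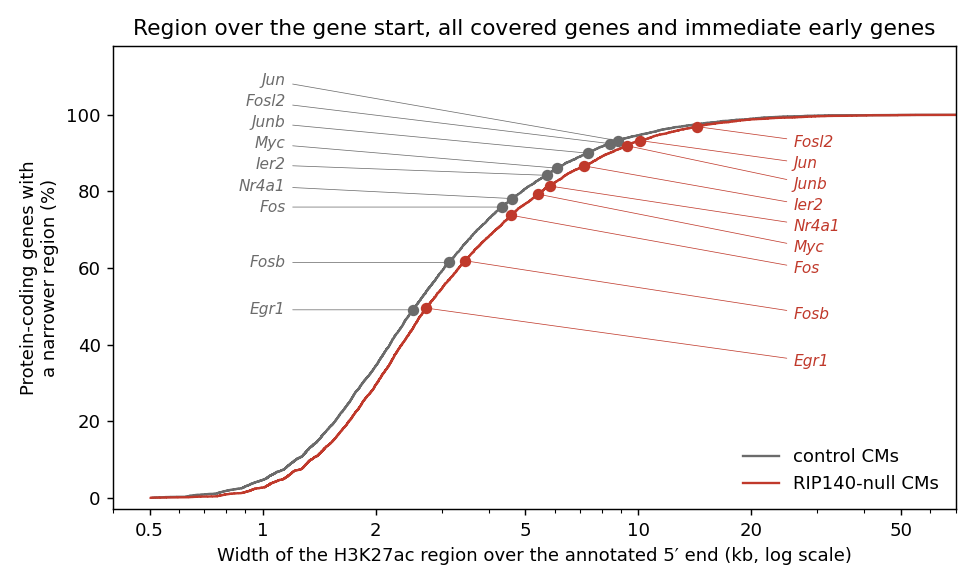
Cumulative distribution of the width of the H3K27ac region over the annotated 5′ end (kb, log scale) for protein-coding genes with a covered start, in control CMs (grey, 9555 genes) and RIP140-null CMs (red, 10302 genes). Points are the 9 immediate early genes with a covered start, which range from Egr1 at 49.1% and 49.5% to Jun at 93.3% in control and Fosl2 at 96.9% in RIP140-null CMs.

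The 10 genes were also short, with a median length of 5073 bp against 17425 bp over protein-coding genes and a median of 3.5 merged exons against 7. The median share of the window covered was 41.1% in control and 43.9% in RIP140-null CMs, against 5.31% and 6.13% for genes of like window length and 43.0% and 55.8% for the 26 other immediate early genes. Among the 6289 of those genes with the start covered in both lists, the medians were 15.6% and 17.1%, against 41.7% and 49.5% for the 9 genes with covered starts. Jun had the largest share in control CMs (75.8%) and Ier2 in RIP140-null CMs (80.4%). Atf3 had the smallest share in both lists, 10.9% and 14.1%.

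Motif letters were counted in the whole start regions of the 9 genes and in all regions over a protein-coding start. In control CMs, CArG boxes numbered 9 in 50975 bp, or 1.77 per 10 kb, against 0.541 per 10 kb in the 8410 regions over a start. Of these, 5 lay in the Egr1 region, 2 in that of Junb and 1 each in those of Fos and Fosb. In RIP140-null CMs there were 10 in 62940 bp, or 1.59 against 0.524 per 10 kb, with 1 more in the longer Fosl2 region. GCGNGGGCG was found 15 times in each list, at 8 of 9 genes (all but Fos), or 2.94 against 1.03 per 10 kb in control and 2.38 against 1.02 per 10 kb in RIP140-null CMs. TGANTCA was less dense than in all start regions in control CMs, 1.96 against 2.56 per 10 kb, and denser in RIP140-null CMs, 3.02 against 2.58 per 10 kb. These were 10 and 19 matches, which differed at Ier2 (1 and 5), Fosl2 (2 and 4), Junb (0 and 2) and Jun (1 and 2) only. Control regions of Fosl2, Jun and Junb that did not cover the start held 2, 1 and 4 more. CACGTG was less dense in both, 1.18 against 1.71 per 10 kb in control and 1.11 against 1.69 per 10 kb in RIP140-null CMs. TGACGTCA and TGACATCA were each found 2 times in each list. Over all regions at the 10 genes, TGANTCA was less dense than in the whole list in both genotypes. It had 2.42 against 3.26 per 10 kb in control and 2.30 against 3.22 in RIP140-null CMs. CACGTG was then less dense in control CMs, 1.21 against 1.40, and denser in RIP140-null CMs, 1.63 against 1.43. GC content was 54.3% in the control start regions of the 9 genes against 49.1% in all, and its part in these densities was not tested.

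Related genes gave the setting in which the 10 genes lie. Over all protein-coding genes, the start was covered in both lists at 41.1%. Among genes covered in both lists, over which ratios were taken, 16.3% were past 1.5-fold longer and 8.60% past 1.5-fold shorter. Of 15 AP-1 and bZIP partners, 10 had the start covered in both lists, the median log2 ratio was 0.08, and 0 passed 1.5-fold in either direction. Jund and Batf3 had no region in either list. Fosl1, which encodes FRA-1, had its start covered in RIP140-null CMs only, by a region of 883 bp. The starts of Batf and of the small MAF gene Maff were covered in control CMs only, by regions of 832 bp and 2311 bp, although another annotated start of Maff was covered in RIP140-null CMs. Start regions covered in both lists also differed in width, as at Cebpb, a C/EBP factor gene (10555 bp in control and 3583 bp in RIP140-null CMs), and Atf4, a stress-response factor gene (2942 bp and 5297 bp).

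Of 7 EGR and NR4A relatives and EGR cofactors, 4 had the start covered in both lists, namely Nab1 and Nab2, corepressors of EGR proteins, and the orphan receptors Nr4a2 and Nr4a3. Egr2 and Egr4 had no region, and Egr3 had no region over its start, with a covered length of 1018 bp in control and 1682 bp in RIP140-null CMs (log2 0.72). Egr1 was thus the only EGR gene of the 4 with a covered start, whereas Nr4a1, Nr4a2 and Nr4a3 were all covered.

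Of 26 other immediate early genes, 23 had the start covered in both lists. Among the 25 with a ratio, 6 were past 1.5-fold longer and 2 past 1.5-fold shorter in RIP140-null CMs, and the median log2 ratio was 0.09. Klf2, a Kruppel-like factor of flow-sensing endothelium, had 3051 bp covered in control and 7817 bp in RIP140-null CMs (log2 1.36). Gadd45b, a stress-response gene, had 3438 bp and 7391 bp (log2 1.10). Klf4 had 12505 bp and 5145 bp (log2 -1.28). Irf1, an interferon-regulated factor, had 4804 bp in control and 202 bp in RIP140-null CMs (log2 -4.57), and its start was covered in control CMs only. The 5′ end of the Csrnp1 record was covered in RIP140-null CMs only, by a region of 9845 bp, but another of its annotated starts was covered in control CMs. Ptgs2, the inducible cyclooxygenase, had no region in either list. The ratios of this list thus ran from -4.57 to 1.36, and those of the 10 genes from -0.17 to 0.98. The lowest, that of Irf1, rested on 202 bp in RIP140-null CMs, and the next lowest of this list was Klf4 at -1.28. With a ratio at 25 genes, this list was also the larger.

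Of 16 feedback inhibitors of the early response, 14 had the start covered in both lists. Among the 15 with a ratio, 3 were past 1.5-fold longer and 2 past 1.5-fold shorter, and the median log2 ratio was 0.13. Tnfaip3, an inhibitor of NF-kB signaling, had 2192 bp covered in control and 8137 bp in RIP140-null CMs (log2 1.89). Zfp36l2, which promotes decay of AU-rich mRNAs, had 3157 bp and 7296 bp (log2 1.21). Nfkbia, which encodes IkB-alpha, had 7329 bp and 3286 bp (log2 -1.16), and the ERK phosphatase gene Dusp5 had 4941 bp and 2222 bp (log2 -1.15). The 5′ end of Errfi1, an inhibitor of EGF receptor kinases, was covered in RIP140-null CMs only, but another of its annotated starts was covered in control CMs. Dusp1 had the longest covered length of the list, 27126 bp in control and 31432 bp in RIP140-null CMs, and Dusp2 had no region. As a share of its window, Dusp1 was near the list medians (40.8% and 47.2%, against 41.2% and 45.7%). The NF-kB inhibitors Tnfaip3 and Nfkbia therefore differed in opposite directions.

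Of 20 upstream kinases and transcription factors, 16 had the start covered in both lists, Srf, Elk1, Elk3, Elk4 and Creb1 among them, and the median log2 ratio was 0.07. Mapk3, which encodes ERK1, had 2040 bp covered in control and 4174 bp in RIP140-null CMs (log2 1.03) and was the only gene of this list past 1.5-fold. The starts of Mapk7 and Mapk8, the genes for ERK5 and JNK1, were covered in RIP140-null CMs only, by regions of 1846 bp and 2420 bp. Heat shock genes, which respond to protein damage, had the start covered in both lists at 13 of 13, with a median log2 ratio of -0.08. Among them Hsf1, the heat shock transcription factor gene, had 1364 bp and 3086 bp (log2 1.18), and Hspd1, a mitochondrial chaperone gene, had 6995 bp and 11273 bp (log2 0.69). Core cardiac transcription factor genes were covered at the start in both lists at 12 of 12, with a median log2 ratio of 0.18 and 0 past 1.5-fold.

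**Figure D5:**
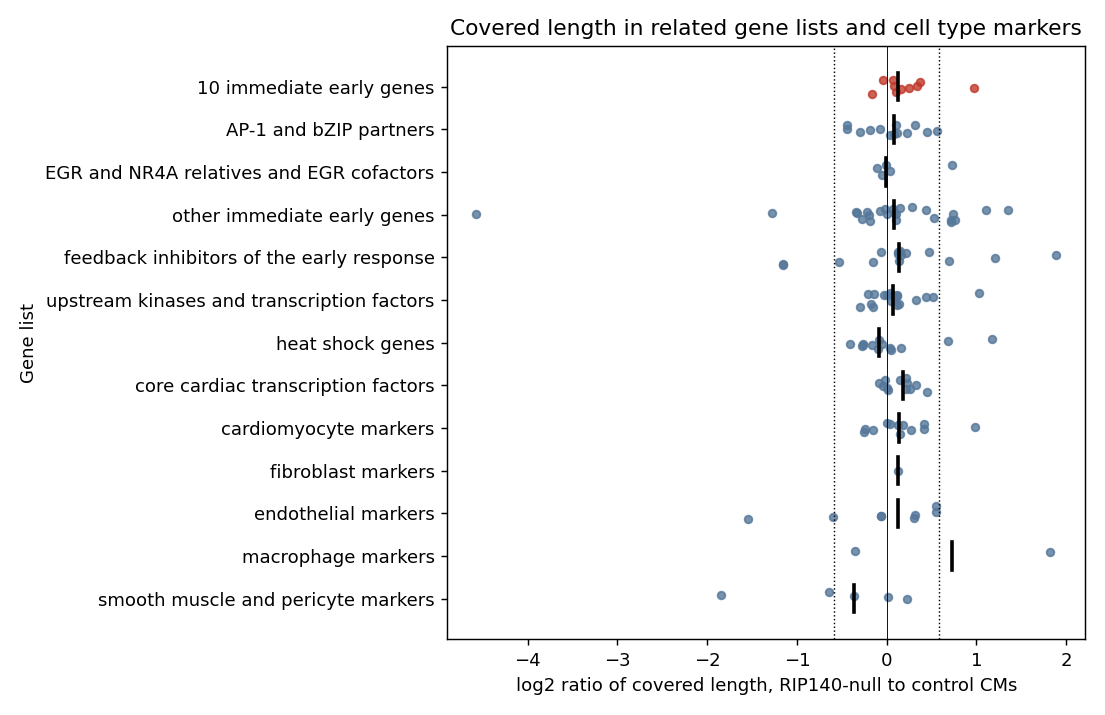
Log2 ratio of covered length, RIP140-null to control CMs, for each gene covered in both lists, by gene list, with the median as a black bar and dotted lines at 1.5-fold. Vertical scatter within a list carries no value. The 10 immediate early genes (red) have a median of 0.13, and Irf1 lies farthest left at -4.57, with 202 bp covered in RIP140-null CMs.

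The cell type label was checked against marker genes. Of 12 CM markers, 11 had the start covered in both lists, and Myl3 was covered at another of its starts. Their summed covered length was 155966 bp in control and 175866 bp in RIP140-null CMs, most of all at Atp2a2 (24683 bp and 32871 bp), and Mybpc3 went from 4670 bp to 9215 bp (log2 0.98). Of 8 fibroblast markers, 3 had a region in control CMs and 1 in RIP140-null CMs, with 4496 bp and 834 bp in sum. Col3a1 was the most covered in control CMs (2936 bp, of which a region of 1815 bp lay over its start) and Col1a1 in RIP140-null CMs (834 bp). Col1a2, Dcn, Lum, Tcf21 and Postn had none. Of 8 macrophage markers, 3 had a region in control and 2 in RIP140-null CMs, with 4229 bp and 5927 bp in sum. The most covered were Cd14 in control (2302 bp) and Cd68 in RIP140-null CMs (4128 bp, log2 1.82), and Ptprc, Csf1r, Adgre1, Lyz2 and C1qa had none. No annotated start of Cd68 was covered in either list. CM markers were thus covered in both lists, and most defining markers of fibroblasts and macrophages had no region.

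Endothelial markers were covered in both lists. All 8 had a region, 5 had the start covered in both, and the sum was 117592 bp in control and 128923 bp in RIP140-null CMs. Tek was the most covered in control (37756 bp) and Pecam1 in RIP140-null CMs (41698 bp). Their log2 ratios went both ways, with a median of 0.12. Cdh5 (log2 -1.54) and Tie1 (log2 -0.60) were past 1.5-fold shorter in RIP140-null CMs, and Egfl7 (-0.07) and Tek (-0.06) were shorter by less. Emcn (0.56), Vwf (0.55), Pecam1 (0.32) and Kdr (0.31) were longer, none of them past 1.5-fold. Of 8 smooth muscle and pericyte markers, 5 had a region in control and 6 in RIP140-null CMs, with 19760 bp and 16067 bp in sum, most at Myh11 (7526 bp and 7581 bp); Pdgfrb and Rgs5 had none. Acta2 (log2 -1.85) and Tagln (log2 -0.64) were past 1.5-fold shorter, the 5′ end of Acta2 was covered in control CMs only, with another of its starts covered in RIP140-null CMs, and the start of Kcnj8 was covered in RIP140-null CMs only. Of 8 genes of other tissues, only Apoa1 had a region, of 87 bp within its window in control CMs. Endothelial markers thus had regions in the lists of both genotypes, and the part of endothelial nuclei in the regions at the 10 genes was not tested.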

How the data were processed

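The authors performed H3K27ac CUT&RUN in CMs of both genotypes. Per the labels and methods, Bowtie2 2.4.2 served for alignment (GRCm38) and SAMtools for taking out duplicates, and HOMER 4.11.1 called regions over IgG per replicate and merged them. The deposited lists give the start and end of each region in bp and a score, which is the same in every row and was not used.

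Sequences other than chromosomes 1 to 19, X and Y were left out, with 21 control and 14 KO regions. Covered length was the part of a gene body with 5 kb on each side inside regions of a list. Regions were shared if they overlapped by at least 1 bp. Ratios are KO to control with no pseudocount. The threshold was 1.5-fold, which the study asks of the H3K27ac signal in differential peaks. Here it was applied to covered length and region width, which are other quantities. The background was the 21938 protein-coding genes of GENCODE M21. No test was run, since each genotype is 1 list. The genes, related lists and alternatives were chosen with earlier results of these data known. All 10 genes are named. In each other list, the 2 highest and 2 lowest ratios past 1.5-fold and up to 3 genes with the start covered in 1 genotype only are named, and any other gene was chosen after its values were seen. Alternatives changed the overlap, the window, the clipping, the start used and the regions kept. Promoters came from RefSeq and other sequence from GRCm38, and motifs were searched on both strands with overlaps allowed. The sequence of 1 region is not reported here. The steps were tested on simulated data. Python 3.11.15, numpy 2.4.6, pysam 0.24.0 and matplotlib 3.10.9 were used.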

Additional observations from a re-analysis of the deposited data

How the results depend on the processing

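The count of genes with H3K27ac over the start in both lists (9 of 10) stayed within 1.5 times under every alternative run, as did the count past 1.5-fold shorter (0). The number with a KO-only region (2) was 1 when a gap of up to 1000 bp counted as shared (Egr1), 1 within the gene body alone (Atf3) and 6 with 20 kb on each side (Fos, Fosb, Junb, Egr1, Atf3 and Nr4a1). The number with a control-only region (1) was 2 when at least 50% of a region had to be covered by the other list (Jun and Atf3), 3 with 20 kb on each side (Atf3, Nr4a1 and Ier2) and 0 among regions at least 1000 bp wide. For KO-only and control-only regions, the share over all genes was computed in the main windows only. Their counts under the alternatives therefore have no background. The median log2 ratio of covered length (0.13) was 0.026 within the gene body, where Junb and Ier2 were covered in full in both lists and could only give 0, 0.15 with 20 kb and 0.091 with whole regions in place of clipped ones. The number past 1.5-fold longer (1) was 0 within the gene body, 0 with 20 kb and 2 among regions at least 1000 bp wide, where Atf3 joined Egr1 because its control-only region was removed. With whole regions, an alternative chosen after seeing the data, it was 2 (Atf3 at 1.19 and Egr1). Among other alternatives chosen after seeing the data, the median was 0.10 without Egr1, 0.058 within the gene body and 0.091 in the main windows without Junb and Ier2, and 0.25 among regions of 3 or more subpeaks, as read from region names. Among those regions the gene past 1.5-fold was Fosb (1.80) and not Egr1 (0.12). They gave KO-only regions at 3 genes (Fosb, Fosl2 and Myc, none of them Egr1 or Atf3) and control-only regions at 2 genes (Fosb and Ier2), and Myc had no such region in the control list. In the full lists each of these regions overlapped a region of the other list, which had 2 subpeaks and was left out here. At Fosb the start region of 3460 bp in RIP140-null CMs (3 subpeaks) was kept. Its control counterpart of 3132 bp (2 subpeaks) was left out. Of the ratios of single genes under other windows, 23 moved and 7 did not at 2 decimals, and 3 genes under 1.5-fold changed direction: Fos (0.08 to -0.43) and Jun (-0.05 to 0.05, its body covered in full in the KO list) within the gene body and Junb (0.16 to -0.20) with whole regions. Among regions of 3 or more subpeaks, Ier2 (0.34 to -0.03) and Jun (-0.05 to 0.26) changed direction. The gene with the largest ratio was Egr1 in the main windows, Nr4a1 within the gene body, Atf3 with whole regions and Fosb among regions of 3 or more subpeaks. Some moved values followed from which regions were counted, as given above for Atf3 among wide regions and Junb and Ier2 within the gene body. Within the gene body, Egr1 lost its downstream region of 2217 bp. With whole regions, a control region of 4174 bp counted in full at Junb, while its KO partner lay beyond the window. At Atf3 a KO region of 7726 bp did so, while its control partners lay beyond the window. For moved values with no such account, the cause was not tested. No paired analysis was possible on the lists used, because each genotype is 1 list with no values per replicate. Widths depend on depth and on the region caller, and neither could be varied here; a region in 1 list only may be below the caller's threshold in the other.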
